A study of Mus musculus with 9 samples.

Results

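Genes that mark fat cells were followed in cultured mouse osteoblasts given a parathyroid hormone peptide. They were Fabp4, Plin1, Adipoq, Pparg, Cebpa, Cebpb, Cebpd, Lpl, Cd36 and Cidec, that is 10 of the 22180 genes with a transcript cluster (a probe group for 1 transcript region) annotated with 1 gene symbol. All 10 had such a cluster, and for Lpl, the only gene with more than 1, the cluster with the higher mean on the 9 arrays was used. The study measured RNA on 9 Affymetrix arrays of calvarial osteoblasts, the bone-forming cells of the skull cap, taken from C57BL/6J mice aged 7 to 10 days and used at passage 2. Differentiation began on day 3 with β-glycerophosphate and ascorbic acid, and on day 10 serum was withdrawn for 24 h in all groups. Treatment then lasted 4 h with vehicle, with 100 nM human hPTH(1-34) or with 1 µM bovine bPTH(7-34) amide, in which residue 12 is D-tryptophan and residue 34 tyrosine, and each group had 3 arrays. The peptides were given at unlike doses. The cells of each replicate were prepared separately, but the sources used here do not say whether arrays with the same number, 1 to 3, came from one preparation of cells.

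Osteoblasts and fat cells both arise from mesenchymal progenitors, and the factors that favour one fate tend to hold back the other. In a developing fat cell the early factors C/EBPβ and C/EBPδ, encoded by Cebpb and Cebpd, switch on Pparg and Cebpa. PPARγ and C/EBPα then maintain each other and drive the genes of the mature cell. Lpl and Cd36 bring fatty acids in, Fabp4 carries them, Plin1 and Cidec coat the lipid droplet, and Adipoq encodes the secreted hormone adiponectin. hPTH(1-34) acts on the receptor Pth1r and raises cAMP, a signal that in fat cells sets off lipolysis, and bPTH(7-34) is known as an antagonist of that rise.

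Promoter sequences from RefSeq (build GRCm38.p6) were at hand for 7 of the 10 genes, in windows of 250 bases before a transcript start. There were none for Fabp4, Cebpd and Lpl, so these were not searched. Those of 3 genes are printed, 5′ to 3′ and on the plus strand. Cebpb was chosen for half-sites of the cAMP response element, the letters TGACG on either strand, Adipoq for CCAAT boxes on either strand, and Pparg for the C/EBP core letters TTGCNNAA on either strand. The capitals mark the matches to these letters. The windows are chr2:167688665-167688914 for Cebpb, chr16:23146286-23146535 for Adipoq, and chr6:115421816-115422065 for the last of the 3 starts listed for Pparg.
Cebpb: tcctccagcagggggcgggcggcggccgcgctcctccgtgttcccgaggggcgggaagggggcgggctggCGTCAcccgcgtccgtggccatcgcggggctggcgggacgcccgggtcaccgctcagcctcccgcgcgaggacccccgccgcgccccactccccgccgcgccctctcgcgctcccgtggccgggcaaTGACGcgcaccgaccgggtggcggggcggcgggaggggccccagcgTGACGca
Adipoq: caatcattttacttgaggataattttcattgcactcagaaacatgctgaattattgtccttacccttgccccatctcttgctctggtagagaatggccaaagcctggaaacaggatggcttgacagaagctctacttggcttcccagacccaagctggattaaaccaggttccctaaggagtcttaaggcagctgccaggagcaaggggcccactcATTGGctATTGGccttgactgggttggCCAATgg
Pparg: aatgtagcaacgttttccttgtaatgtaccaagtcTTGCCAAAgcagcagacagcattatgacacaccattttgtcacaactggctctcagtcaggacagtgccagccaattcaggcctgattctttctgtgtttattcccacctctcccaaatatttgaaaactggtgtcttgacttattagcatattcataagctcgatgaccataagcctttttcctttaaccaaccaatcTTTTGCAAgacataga

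The Cebpb window held 3 half-sites, beginning 180, 53 and 7 bases before the start, and no other window of the listed genes held one. Of all 32851 promoter windows of that length, 17.8% held at least 1. The full palindrome TGACGTCA was in none of the 10 windows of these genes and in 1.55% of all windows. TTGCNNAA was found in windows of Pparg, Plin1 and Cidec, against 9.56% of all windows, and the Pparg window shown also held CCAAT, which does not overlap its TTGCNNAA matches. CCAAT was in windows of Adipoq, Pparg and Cd36, and in 33.8% of all windows. The DR1 direct repeat, which PPARγ binds with its partner RXR, was searched in 1 exact spelling only. That spelling was in none of the 10 windows and in 0.0335% of all. Other spellings and sequence beyond the windows were not searched, so its absence does not show that these genes lack a DR1 site. A match describes the letters only and shows no binding.

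All 10 genes lay above the limit of background in each group. That limit was 1.69 on the log2 scale, below which 95% of 1105 olfactory receptor genes, not known to act in osteoblasts, had their vehicle mean. The arrays give no read depth, and their number limits the precision. Array medians ran from 1.67 to 1.76. The osteoblast markers Col1a1 and Sparc were bright, with Col1a1, the main bone collagen, at 12.29 ± 0.11 (SD, n = 3) with vehicle, while Dmp1 and Bglap, genes of late osteoblasts and osteocytes, were under the limit in all groups.

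After hPTH(1-34), none of the 10 adipocyte markers passed the threshold against vehicle (limma over 23521 clusters, Benjamini-Hochberg adjusted p under 0.05), and 4 had an unadjusted p under 0.05, as had 2189 of the 23521 clusters. In the same comparison 0.451% of all tested clusters passed, 73 higher and 33 lower. Changes of the markers ran from -0.32 to 0.85 on the log2 scale with a median of 0.47, against 0.00 for all tested clusters. A positive change was seen in 9 of the 10, against 49.9% of all clusters, and in 3 of the 10 the hPTH(1-34) arrays all lay above the vehicle arrays, against 6.08% of all clusters. Cebpd was the exception with a negative change. After bPTH(7-34), none of the 10 passed either, with 0 at an unadjusted p under 0.05. limma called 0% of all clusters there, and 780 had an unadjusted p under 0.05. The median change of the markers was 0.21 (0.00 for all clusters), with 8 of 10 positive against 50.9% of all clusters, and no marker's arrays lay wholly above vehicle, against 2.9%. Both comparisons use the same vehicle arrays, so their changes are not independent. Leaving out vehicle array 2 or 3 or hPTH(1-34) array 2 or 3 brought the number of clusters past the threshold for hPTH(1-34) against vehicle from 106 to 0, 0, 3 and 2. Leaving out hPTH(1-34) array 1 brought it to 259, and leaving out bPTH(7-34) array 1, 2 or 3 to 51, 44 and 67. The 10 markers had none past it in any of these fits. Their median change after hPTH(1-34) ran from 0.24 without hPTH(1-34) array 1 to 0.70 without vehicle array 1. After bPTH(7-34) it was 0.13 without bPTH(7-34) array 1, 0.35 without bPTH(7-34) array 2 and 0.33 without vehicle array 1.

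**Figure D1:**
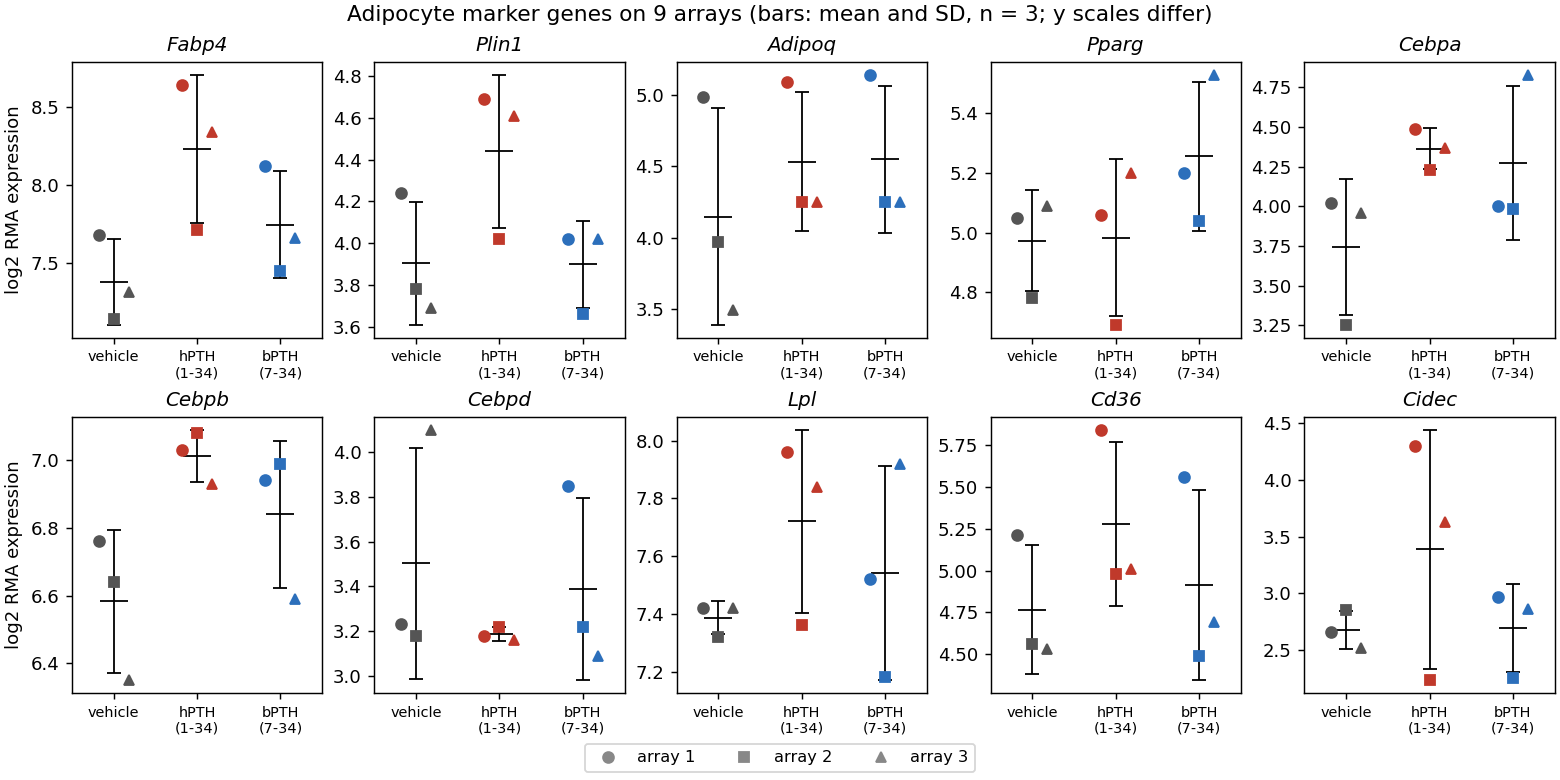
Log2 RMA expression (y axis) of each adipocyte marker on the 9 arrays, by group (x axis), with the marker shape giving the array number and bars the mean and SD of 3 arrays. Fabp4, Cebpa and Cebpb are the 3 genes whose hPTH(1-34) arrays all lie above the vehicle arrays.

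Fabp4, the fatty acid carrier, showed the largest change of the 10. Its log2 level (cluster 17404091) was 7.68, 7.14 and 7.31 on vehicle arrays 1 to 3. With hPTH(1-34) it was 8.64, 7.71 and 8.34, and with bPTH(7-34) 8.12, 7.45 and 7.66. The lowest hPTH(1-34) array thus lay just above the highest vehicle array, and the bPTH(7-34) arrays overlapped both groups. The change after hPTH(1-34) was 0.85 ± 0.26 (SE, n = 3 per group), or 1.81-fold, with a limma adjusted p of 0.299. After bPTH(7-34) it was 0.37 ± 0.26 (limma adjusted p = 0.999). Array 1 was the highest and array 2 the lowest of each group. Between arrays of one number, hPTH(1-34) exceeded vehicle by 0.96, 0.57 and 1.03 for numbers 1, 2 and 3, and bPTH(7-34) exceeded it by 0.44, 0.31 and 0.35.

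The genes of lipid droplet proteins were read next. Plin1, which guards the droplet against lipases (cluster 17492406), was at 4.24, 3.78 and 3.69 with vehicle. It was at 4.69, 4.02 and 4.61 with hPTH(1-34), and at 4.02, 3.66 and 4.02 with bPTH(7-34). Vehicle array 1 lay above hPTH(1-34) array 2, so the groups overlapped. The change after hPTH(1-34) was 0.54 ± 0.21 (limma adjusted p = 0.454), and the one after bPTH(7-34) was 0.00 with a 95% interval from -0.47 to 0.47. Cidec, which helps droplets fuse (cluster 17469754), read 2.66, 2.85 and 2.52 with vehicle. Its hPTH(1-34) arrays read 4.30, 2.23 and 3.63, and its bPTH(7-34) arrays 2.97, 2.25 and 2.86. The second hPTH(1-34) array was the lowest of all 9 and the first the highest, and the change of 0.71 ± 0.44 (limma adjusted p = 0.676) had a 95% interval from -0.28 to 1.70. Without hPTH(1-34) array 1 the change was 0.25, and without hPTH(1-34) array 2 it was 1.29.

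Of the genes of fatty acid uptake, Lpl encodes the lipase that frees fatty acids from circulating lipoproteins. Its level (cluster 17501633) was 7.42, 7.32 and 7.42 with vehicle, 7.96, 7.36 and 7.84 with hPTH(1-34), and 7.52, 7.18 and 7.92 with bPTH(7-34). Vehicle arrays were close together, and the second array of either peptide lay near or under them. The change was 0.33 ± 0.20 after hPTH(1-34) (limma adjusted p = 0.672). It was 0.15 ± 0.20 after bPTH(7-34) (limma adjusted p = 0.999). A dimmer Lpl cluster gave 0.25 for hPTH(1-34) and -0.01 for bPTH(7-34). Cd36, a fatty acid receptor and transporter (cluster 17445715), was at 5.21, 4.56 and 4.53 with vehicle. With hPTH(1-34) it was at 5.84, 4.98 and 5.01, and with bPTH(7-34) at 5.56, 4.49 and 4.69. Array 1 stood above the other arrays in every group, and the changes were 0.51 ± 0.33 and 0.15 ± 0.33 (limma adjusted p = 0.693 and 0.999). The change after hPTH(1-34) was 0.23 without hPTH(1-34) array 1. For Lpl it was 0.21 without that array and 0.51 without hPTH(1-34) array 2.

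Adiponectin's gene followed the array number more than the peptide. Adipoq (cluster 17324404) was at 4.98, 3.97 and 3.49 with vehicle, 5.09, 4.25 and 4.25 with hPTH(1-34), and 5.14, 4.25 and 4.25 with bPTH(7-34). The 3 arrays numbered 1 lay within 4.98 to 5.14 whatever the treatment, and the other 6 lay at 4.25 or less. The changes from vehicle were 0.38 ± 0.40 for hPTH(1-34) and 0.40 ± 0.40 for bPTH(7-34) (limma adjusted p = 0.824 and 0.999). Without vehicle array 1 they were 0.80 and 0.82, and without vehicle array 3 0.055 and 0.072. Without array 1 of the peptide itself both were 0.10.

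Of the transcription factors, Cebpb and Cebpa were higher on every hPTH(1-34) array than on any vehicle array, and Pparg was at nearly the same mean in both groups. Cebpb (cluster 17379938) was at 6.76, 6.64 and 6.35 with vehicle, 7.03, 7.08 and 6.93 with hPTH(1-34), and 6.94, 6.99 and 6.59 with bPTH(7-34). The hPTH(1-34) arrays were tightly grouped above all vehicle arrays, with a change of 0.43 ± 0.14 (95% interval 0.11 to 0.75, limma adjusted p = 0.347). Its window above holds 3 half-sites of the cAMP response element, but whether they bear on this change was not tested. Cebpa (cluster 17476728) was at 4.02, 3.25 and 3.96 with vehicle, 4.49, 4.23 and 4.37 with hPTH(1-34), and 4.00, 3.98 and 4.83 with bPTH(7-34). One low vehicle array and one high bPTH(7-34) array widened its groups, and the changes were 0.62 ± 0.26 and 0.53 ± 0.26 (limma adjusted p = 0.503 and 0.999). Without vehicle array 2 they were 0.37 and 0.28, and without bPTH(7-34) array 3 the latter was 0.25.

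Pparg, the master regulator of fat cells (cluster 17461942), was at 5.05, 4.78 and 5.09 with vehicle and at 5.06, 4.69 and 5.2 with hPTH(1-34). With bPTH(7-34) it was at 5.2, 5.04 and 5.53. The change after hPTH(1-34) was 0.01, with a 95% interval from -0.37 to 0.39, and its sign turned to -0.027 when the arrays were quantile normalised again. After bPTH(7-34) the change was 0.28 ± 0.17 (limma adjusted p = 0.999). Cebpd (cluster 17323297) was at 3.23, 3.18 and 4.10 with vehicle, 3.18, 3.22 and 3.16 with hPTH(1-34), and 3.85, 3.22 and 3.09 with bPTH(7-34). Single high arrays, vehicle array 3 and bPTH(7-34) array 1, stood apart from 7 values between 3.09 and 3.23. Its change after hPTH(1-34) was -0.32 ± 0.26 (limma adjusted p = 0.764), and -0.02 without vehicle array 3.

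**Figure D2:**
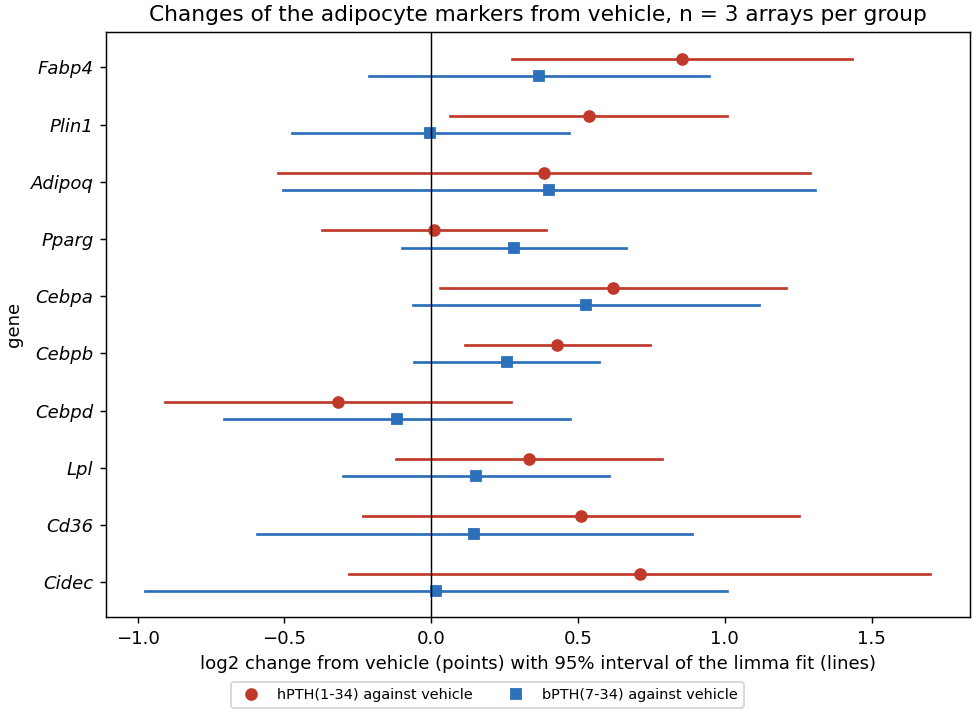
Log2 change from vehicle (x axis) of each adipocyte marker (y axis) for hPTH(1-34) and bPTH(7-34), with 95% intervals from the limma fit, n = 3 arrays per group. For hPTH(1-34) the intervals of Fabp4, Plin1, Cebpa and Cebpb lie above 0, and for bPTH(7-34) each interval holds 0.

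Set directly against bPTH(7-34), again at unlike doses, hPTH(1-34) gave no marker past the threshold, while 0.463% of all clusters passed, and 1 marker had an unadjusted p under 0.05 in limma, as had 2240 of the 23521 clusters, so 1 of 10 is near the background. The marker was Plin1, at 0.54 (95% interval 0.07 to 1.01, limma adjusted p = 0.444). The difference was 0.49 for Fabp4 (-0.09 to 1.07), 0.17 for Cebpb (-0.14 to 0.49) and -0.27 for Pparg (-0.65 to 0.11), each interval holding 0. The hPTH(1-34) mean was higher for 7 of 10, against 48.4% of all clusters, and for 0 of 10 did the arrays separate upward, against 5.99%. By means, 6 of 10 genes (Fabp4, Cebpa, Cebpb, Lpl, Cd36 and Cidec) ran in the order vehicle, bPTH(7-34), hPTH(1-34). The share of all clusters in that order was not computed, so the count is a description only. For Adipoq and Pparg bPTH(7-34) was the highest. Plin1 was at 3.90 with both vehicle and bPTH(7-34), and Cebpd was highest with vehicle. In no gene did any neighbours in these orders pass the threshold.

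The second pattern among these genes was the number of the array. Array 1 alone was the highest of its group in all 3 groups for Fabp4, Adipoq and Cd36, that is 3 of 10, against 6.4% of all tested clusters. The trait was not particular to these genes. Array 1 was also the highest of each group for the adipocyte progenitor markers Cd34 and Pi16, the lipolysis gene Pnpla2 and the osteoclast marker Calcr. For the osteoblast markers Phex and Ibsp it was the lowest of each group. The number took 81.7% of the sum of squares of Adipoq over the 9 arrays and treatment 12.5%. For Cd36 the shares were 74.9% and 22.6%, and for Pparg 61.1% and 32.6%. Fabp4 had 39.4% for the number and 56.7% for treatment, and Cebpb 33.7% and 59.0%. Cebpd had 74.6% with neither. The number had the larger share in 5 of 10 genes, a count that was not computed over all clusters. The medians of the 10 were 36.6% for number and 30.1% for treatment, against 24.7% and 24.5% over all tested clusters. Within a number, hPTH(1-34) exceeded vehicle in 9, 8 and 9 of the 10 genes for numbers 1, 2 and 3, and bPTH(7-34) exceeded it in 8, 6 and 9. The matching shares of all clusters were not computed. Both peptides were set against the same vehicle arrays, and the genes vary together, so these counts are a description only. The breakdown by number was chosen after the values were seen.

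**Figure D3:**
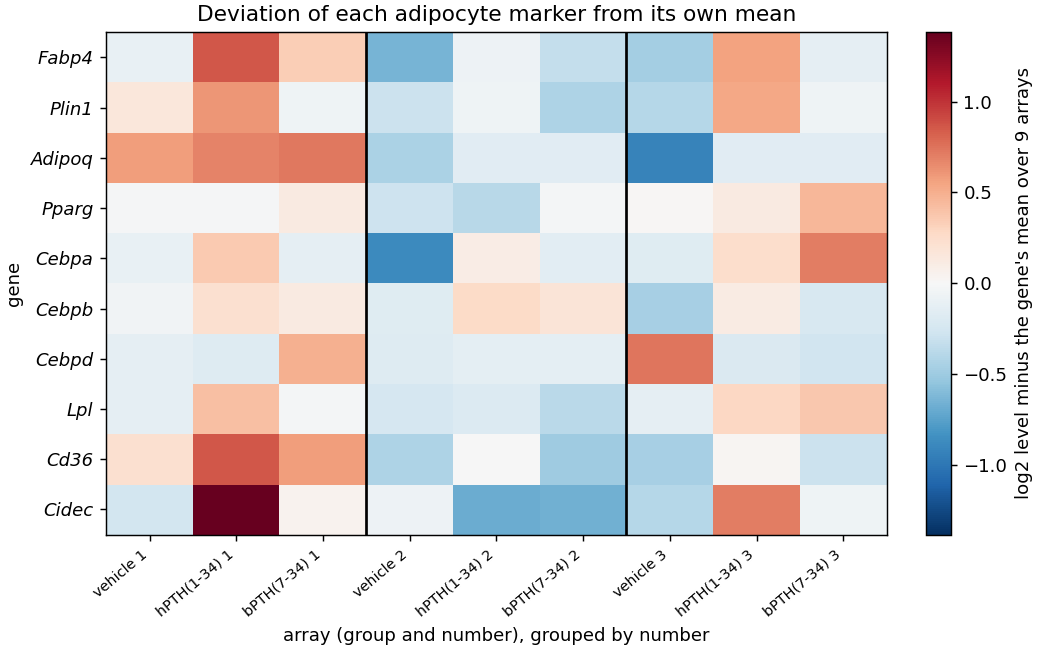
Log2 level of each adipocyte marker (y axis) minus its own mean over 9 arrays, shown as colour, with the arrays (x axis) grouped by number. Adipoq and Cd36 are above their means on all 3 arrays numbered 1, and Cidec is far above its mean on hPTH(1-34) array 1.

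Over the 9 arrays, 36 of the 45 pairs of these genes had a positive Pearson r, with a median of 0.451, and 8 of the 9 pairs with Cebpd were negative. Fabp4 and Plin1 had r = 0.894 (exact permutation p = 0.00162, adjusted over 45 pairs 0.0365) and Spearman's rho = 0.848 (exact permutation p = 0.00599, adjusted 0.0685). Leaving out the 2 arrays farthest in Fabp4 gave r = 0.650 over 7 arrays, and deviations from the group means gave r = 0.888. Plin1 and Cidec had r = 0.843 (exact permutation p = 0.00544, adjusted 0.0490) and rho = 0.695 (exact permutation p = 0.0446, adjusted 0.166). That relation rested on the 2 arrays farthest in Plin1, since r was 0.314 without them. By r, 5 pairs were under an adjusted p of 0.05 in this exact permutation test, and by rho none were. Of the 5, Fabp4 with Cd36 had r = 0.853, and 0.881 without the 2 arrays farthest in Fabp4. Lpl with Cidec had r = 0.807, and 0.891 without the 2 arrays farthest in Lpl. Adipoq with Cd36 was also among the 5. Adipoq falls into separate clusters of arrays, so no r over all 9 is printed for its pairs. The counts and the median above do include them. Arrays share treatment and number, so they are not fully independent points.

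Among 5031 genes with a mean log2 level of at least 5, those most like Fabp4 over the 9 arrays were Slc3a2 (Pearson r = 0.925), the heavy chain of several amino acid transporters, and Atp1b1 (0.914), a sodium pump subunit. Sra1 (0.898), Pdzd2 (0.892) and AI837181 (0.892) followed. Most like Cebpb were Arfgap2 (0.939), which acts in vesicle transport, the RNA-binding protein gene Pcbp1 (0.905), the transcription factor gene Klf9 (0.899), Letm1 (0.888) and the IGF-binding protein protease gene Pappa (0.887). These are the highest of many and are given as a description.

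Several of the 10 genes are also known in macrophages (Fabp4, Cd36, Lpl, Pparg) and in endothelium (Fabp4, Cd36), so markers of those cells were read beside them. Of 12 macrophage markers, 2 were under the background limit in all groups, and Lyz2, the brightest, was at 7.58, 6.49 and 7.20 with vehicle. The log2 of their summed signal ran from 7.91 to 8.96 with vehicle, from 7.30 to 9.06 with hPTH(1-34) and from 7.49 to 8.64 with bPTH(7-34), and none of the 12 passed in either comparison with vehicle. The sum was highest on array 1 with vehicle (8.96) and hPTH(1-34) (9.06), as for Fabp4 and Cd36, but on array 2 with bPTH(7-34) (8.64). On hPTH(1-34) array 3 it was the lowest of all 9, where Fabp4 had its second highest level. Of 10 endothelial markers, 5 were under the limit in all groups, with Pecam1 at 1.88 ± 0.26 and Cdh5 at 1.82 ± 0.02 (SD, n = 3) with vehicle, little above it. The brightest of the list was Tek, a receptor of angiopoietins, with a mean of 3.11 over all arrays and 4.04 on bPTH(7-34) array 1. Of 6 osteoclast markers, 1 was under the limit in all groups, Oscar, with a mean of 1.40 over all arrays. Ctsk, a protease gene best known in osteoclasts, was the brightest, with a mean of 7.98 over all arrays. With vehicle, Acp5 was at 4.73 and Calcr at 3.14. Dcstamp at 1.80 and Ocstamp at 1.73 were little above the limit with vehicle. The mean was 3.54 for the muscle actin gene Acta1, and no gene of the osteoclast or muscle lists passed. The summed signal of the 10 adipocyte markers, which Fabp4 and Lpl dominate, ran from 8.99 to 9.32 with vehicle, from 9.31 to 9.94 with hPTH(1-34) and from 9.14 to 9.57 with bPTH(7-34). The part of other cell types in these values was not tested, and in bulk RNA fewer cells of a type and less RNA per cell cannot be told apart.

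**Figure D4:**
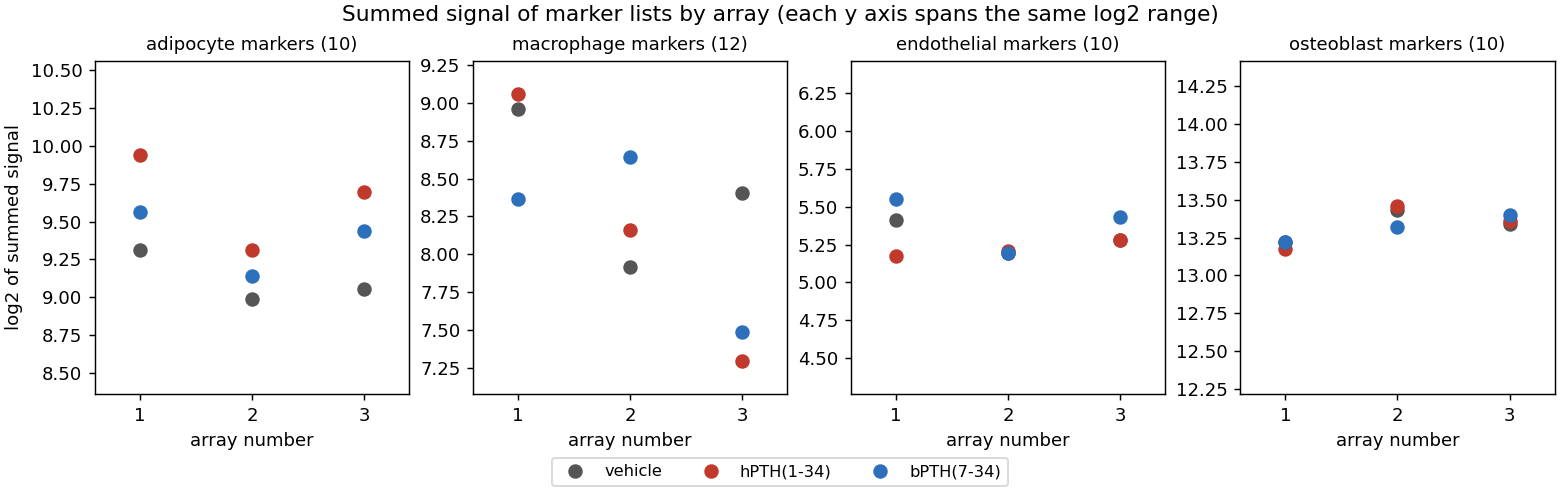
Log2 of the summed signal of adipocyte, macrophage, endothelial and osteoblast markers (y axes, each spanning the same log2 range) by array number (x axis) and treatment (colour). The adipocyte sum is lowest with vehicle at each number, whereas the macrophage sum ranges from 7.30 to 9.06 with no fixed order of treatments.

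Other genes of the fat cell programme were read from 7 lists. Of 18 further regulators of adipogenesis 0 passed after hPTH(1-34) in limma, with a median change of -0.04. The factors Klf5 and Ebf1, both known to promote adipogenesis, had the smallest p. Klf5 was at 5.06, 4.66 and 4.75 with vehicle and at 4.35, 3.74 and 3.5 with hPTH(1-34), a change of -0.96 ± 0.21 (limma adjusted p = 0.124). Ebf1 gave -0.76 ± 0.19 (limma adjusted p = 0.177). For both, the hPTH(1-34) arrays all lay under the vehicle arrays, the opposite direction to Cebpb and Cebpa. Of 16 inhibitors of adipogenesis 1 fell and 0 rose. It was Zfp521, a zinc finger factor that restrains the fat fate, at 7.59, 7.66 and 7.69 with vehicle and 6.93, 6.54 and 6.62 with hPTH(1-34), a change of -0.95 ± 0.13 (limma adjusted p = 0.0244).

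Among other genes of lipid handling, a few had larger changes than Fabp4. Of 14 other lipid droplet and lipolysis genes 1 rose and 0 fell, with a median of 0.16. Abhd5, the activator of the triglyceride lipase ATGL, was at 6.41, 6.13 and 6.13 with vehicle, 7.38, 7.43 and 7.48 with hPTH(1-34), and 6.40, 6.16 and 6.41 with bPTH(7-34). It rose 2.31-fold (1.21 ± 0.11, limma adjusted p = 0.00861), and the bPTH(7-34) arrays stayed in the range of vehicle. Of 12 other fatty acid uptake and transport genes 1 rose and 0 fell. Acsl4, which activates long-chain fatty acids, rose by 1.59 ± 0.20 (limma adjusted p = 0.0204), from 6.59, 5.91 and 6.19 to 7.68, 7.91 and 7.86. Dgat1, the enzyme that completes triglyceride synthesis, rose too, from 4.63, 4.47 and 4.48 to 7.57, 8.48 and 8.66 (3.71 ± 0.26, limma adjusted p = 0.00287).

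Of 16 other mature fat genes and adipokines 0 passed in limma. Pde3b, a phosphodiesterase that curbs lipolysis, gave 1.02 ± 0.24 (limma adjusted p = 0.161) and Nampt -0.48 ± 0.18 (limma adjusted p = 0.437), and 3 of the 16 were under the background limit in all groups. Of 11 brown and beige fat markers 0 passed as well. Dio2, which makes active thyroid hormone, was at 3.38, 1.83 and 3.13 with vehicle and 4.72, 5.29 and 5.67 with hPTH(1-34), a change of 2.45 ± 0.46 (limma adjusted p = 0.0699), and the coactivator gene Ppargc1a gave 0.42 ± 0.17 (limma adjusted p = 0.475). Of 10 adipocyte progenitor markers 1 fell, Bmp4, from 6.43, 6.69 and 6.79 to 5.76, 5.02 and 4.89 (-1.41 ± 0.24, limma adjusted p = 0.0484). After bPTH(7-34) none of the measured genes in these 7 lists passed in limma.

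Each of these calls was lost in some fits with 1 array left out, and in most such fits fewer clusters passed in all. Without vehicle array 2 or 3 or hPTH(1-34) array 2 or 3, Abhd5 had a limma adjusted p of 0.0673, 0.0584, 0.0693 and 0.0504, and Acsl4 one of 0.109, 0.124, 0.115 and 0.129. Zfp521 was lost without the same arrays (0.135, 0.131, 0.135 and 0.138) and without vehicle array 1 (0.0557), and Dgat1 without vehicle array 2 (0.0572) or 3 (0.0502). Bmp4 passed only without hPTH(1-34) array 1 (0.00883) and had 0.0711 to 0.225 without any other single array. Log2 changes kept their signs throughout, from 1.16 to 1.30 for Abhd5 and from 1.43 to 1.77 for Acsl4.

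**Figure D5:**
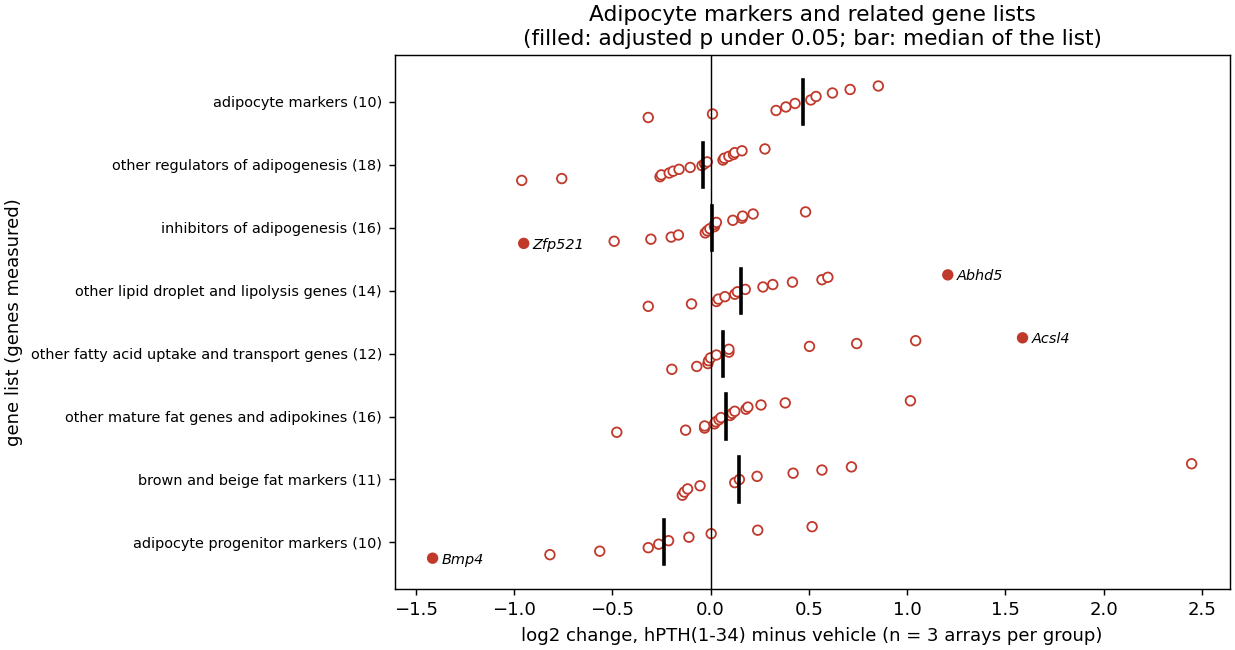
Log2 change from vehicle to hPTH(1-34) (x axis) of the 10 adipocyte markers and the genes of 7 related lists (y axis), filled where the limma adjusted p is under 0.05, with a bar at each list's median. The adipocyte markers have a median of 0.47 with none filled, while Abhd5, Acsl4, Zfp521 and Bmp4 are filled in the other lists.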

How the data were processed

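RNA was measured on 9 Affymetrix Mouse Gene 2.0 ST arrays, and 1 table held all values. Per the submitters' processing notes the authors used Affymetrix Expression Console and RMA. The deposited values are log2 expression per transcript cluster, rounded to 2 decimals, with tool versions not given in the sources used here. Of 41345 clusters, 23521 carried 1 gene symbol in the platform annotation and were tested, 1814 carried several and 16010 none. limma 3.58.1 in R 4.3.3 (lmFit, eBayes) fitted all 9 arrays with treatment as the only term (6 residual and 3.20 prior degrees of freedom), with two-sided p-values adjusted by Benjamini-Hochberg separately in the 3 comparisons. The fit was tested on simulated data. Errors beside changes are standard errors, and intervals are 95% intervals of the fit. Correlations used exact enumeration of all pairings. Plots used matplotlib 3.10.9 in Python 3.11.15. The members and lists were chosen with earlier results of these data known. Named beside the 10 markers were, per list, the genes past the threshold or else the 2 with the smallest p for hPTH(1-34), the lowest and highest cell type markers or those that define a cell type, the genes most like Fabp4 and Cebpb, and Dgat1. Alternatives were the array number as a block, quantile normalisation, a common median, the whole table, dim clusters (mean log2 under 5) dropped, a trended robust fit, 6 arrays alone, and each array left out.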

Additional observations from a re-analysis of the deposited data

How the results depend on the processing

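No marker passed against vehicle or between the peptides under the alternatives run, of which the limit of a mean of at least 5 left 4 of the 10 markers to test, except Fabp4 for hPTH(1-34) against vehicle with the array number as a replicate block, where 1 of 10 passed (0.85, limma adjusted p = 0.0399). Deviations from the group means were correlated between arrays of different groups. The correlation was above 0.1 for 6 of 9 pairs with one number, and all 9 ran from 0.0646 to 0.364. It was above 0.1 for 1 of 18 pairs with different numbers, which ran from -0.294 to 0.138. With 6 of the 9 above it, not all, the number was kept as an alternative. Of the arrays, 8 of 9 correlated best with one of their own number. With the block 112, 0 and 116 clusters passed for hPTH(1-34) against vehicle, bPTH(7-34) against vehicle and hPTH(1-34) against bPTH(7-34), against 106, 0 and 109 without it. Klf5 (0.0376) and Pde3b (0.0481) also passed with the block for hPTH(1-34) against vehicle, and Bmp4 did not (0.0853). For hPTH(1-34) against vehicle and against bPTH(7-34) the counts were 16 and 3 over all clusters, 182 and 211 over clusters with a mean of at least 5, and 0 and 0 in limma with 6 arrays alone (1936 and 2066 at an unadjusted p under 0.05). Leaving out single arrays gave 0 to 259 and 2 to 262, and 0 throughout for bPTH(7-34). Of 465 recomputed marker values 444 kept their sign and side of the threshold, 1 passed and 20 turned sign, in genes whose reported changes lay between -0.20 and 0.15. Pparg ran from -0.10 to 0.16 for hPTH(1-34) without single arrays and was -0.027 after quantile normalisation. For bPTH(7-34) against vehicle, Cd36 ran from -0.18 to 0.37, Cebpd from -0.35 to 0.18, Cidec from -0.12 to 0.24, Lpl from -0.037 to 0.33 (-0.013 in its other cluster) and Plin1 from -0.11 to 0.17. Between the peptides Adipoq ran from -0.30 to 0.28, Cebpa from -0.052 to 0.37 and Cebpd from -0.35 to 0.032. The causes were not tested.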

Other observations

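A moderated F-test of the array number beside treatment, chosen after the values were seen, passed for 1 of the 10 adipocyte markers, Cd36 (limma adjusted p = 0.0402), and for 0.213% of all clusters. Adipoq had a limma adjusted p of 0.0553 and Fabp4 one of 0.141, and 7 of 10 had an unadjusted p under 0.05, as had 2371 of the 23521 clusters.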
